A study of Homo sapiens with 5 samples.

Results

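MTRNR2L1, MTRNR2L6, MTRNR2L8, MTRNR2L10 and MTRNR2L12, 5 nuclear copies of the humanin region of the mitochondrial 16S ribosomal RNA gene, were followed in human brain organoids before and after grafting into mouse brain. They were chosen by name from the human-reference count matrices, with their levels in these libraries already known, and are 5 of the 11 MTRNR2L genes listed there. The matrices list 36601 genes for the grafts and 33538 for the organoids before grafting. Because the levels guided the choice, levels, shares and relations of the 5 genes are given as a description with no test.

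Humanin is a short secreted peptide whose reading frame lies inside MT-RNR2, the mitochondrial 16S ribosomal RNA gene, and it is known for protecting neurons and other cells from death. Pieces of mitochondrial DNA have been copied into the nuclear genome many times, and the MTRNR2L genes are such copies that keep a humanin-like frame. Because they resemble the mitochondrial gene so closely, it is a known difficulty to tell whether a short read came from a nuclear copy or from mitochondrial ribosomal RNA.

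Human brain organoids made from the embryonic stem cell line H9, a single line that carries ChR2-EYFP at the AAVS locus per the study's methods and is labelled WT, were profiled by 10x 3′ single-cell RNA sequencing. The library D0 held organoids at culture day 42, which were never in an animal and were dissociated with TrypLE. The other 4 libraries held grafts of such organoids in the prefrontal cortex (PFC) or hippocampus (HIP) of young adult immunodeficient SCID-Beige mice, dissected by their fluorescence at 2 or 4 months post transplantation (MPT) and dissociated with Trypsin-EDTA. Each condition had 1 library, and the labels do not say how many hosts went into it, so no value here has a biological replicate within a condition.

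The grafts were deposited in 2 forms, counted once on the human reference alone and once on a dual reference of human and mouse genes. A UMI, a unique molecular identifier, stands for 1 captured RNA molecule, and levels are counts per 1000000 UMIs of the same cells (CPM). Human cells were barcodes with over 500 UMIs and 500 genes, under 15% of UMIs from mitochondrially encoded (MT-) genes and, in grafts, over 80% human UMIs in the dual reference. They numbered 4885 in D0, 8277 in HIP_2MPT, 5952 for PFC_2MPT, 6913 for HIP_4MPT and 8363 for PFC_4MPT, with 11192237 to 55892222 UMIs per library and median UMIs per cell from 1253 in HIP_2MPT to 9847 in D0. Any pair of libraries shared 6 to 20 barcodes, at most 0.289% of the smaller library. PFC_4MPT stood apart: MT- genes made up 7.17% of its human cells' UMIs against 2.44% to 3.85% in the other grafts, and mouse UMIs were 6.54% of these cells' UMIs in the dual reference against 1.07% to 4.21%. D0 was also counted with another version of the counting software and another gene annotation than the grafts, and its dissociation enzyme differed, so stage, annotation and handling cannot be told apart wherever D0 is set beside a graft.

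The humanin frames are shown first, since they show how close the copies are to the mitochondrial gene and to each other. MT-RNR2 holds 1 frame of 24 codons among its 14 open frames, at chrM:2633-2707 on the plus strand of GRCh38. The matching stretch was read from the hg38 genome at the RefSeq GRCh38.p14 positions of each copy, 5′ to 3′ along the gene, with capitals for bases that differ from MT-RNR2 or are inserted.
MT-RNR2: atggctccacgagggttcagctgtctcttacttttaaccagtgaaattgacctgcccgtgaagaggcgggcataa
MTRNR2L1: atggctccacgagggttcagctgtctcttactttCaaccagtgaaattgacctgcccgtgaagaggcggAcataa
MTRNR2L8: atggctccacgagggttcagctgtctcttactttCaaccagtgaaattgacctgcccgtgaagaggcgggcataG
MTRNR2L12: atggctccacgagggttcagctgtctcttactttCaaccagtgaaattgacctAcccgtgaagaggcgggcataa
MTRNR2L6: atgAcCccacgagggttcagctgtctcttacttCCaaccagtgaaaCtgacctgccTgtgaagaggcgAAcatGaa
MTRNR2L10: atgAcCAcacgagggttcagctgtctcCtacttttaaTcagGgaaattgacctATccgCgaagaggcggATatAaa

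These stretches lie at chr17:22524062-22524136 on the plus strand for MTRNR2L1, chr11:10508152-10508226 on the minus strand for MTRNR2L8, chr3:96617199-96617273 on the minus strand for MTRNR2L12, chr7:142667231-142667306 on the plus strand for MTRNR2L6 and chrX:55181919-55181994 on the minus strand for MTRNR2L10. The loci bear the identifiers ENSG00000256618 (MTRNR2L1), ENSG00000270672 (MTRNR2L6), ENSG00000255823 (MTRNR2L8), ENSG00000256045 (MTRNR2L10) and ENSG00000269028 (MTRNR2L12), and the RefSeq genes run over chr17:22523415-22524663, chr7:142667017-142667685, chr11:10507887-10509176, chrX:55181392-55182442 and chr3:96617186-96618223 in that order. In all 5 copies the frame held 24 codons, the start included, before a stop. MTRNR2L1, MTRNR2L8 and MTRNR2L12 each kept 73 of the 75 bases of the mitochondrial frame, whereas MTRNR2L6 kept 67 and MTRNR2L10 kept 64. Over the whole RefSeq gene, identity to the mitochondrial genome was 95.2% for MTRNR2L12, 93.1% for MTRNR2L8, 88.5% for MTRNR2L1, 87.9% for MTRNR2L6 and 82.2% for MTRNR2L10. Hence the pair MTRNR2L6 and MTRNR2L10 was the least like the human mitochondrial sequence among the 5.

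Stretches of 90 bases were used to look for places where a read could not tell a copy from its source. Only MTRNR2L12 had such stretches in common with the human mitochondrial genome, at 10 of its 949 positions, and its longest exact run was 99 bases. MTRNR2L8 and MTRNR2L12 shared 35 stretches with each other, so a read within them could not tell these genes apart. The longest exact runs with the mitochondrial genome were 88 bases for MTRNR2L8, 62 for MTRNR2L10, 60 for MTRNR2L1 and 55 for MTRNR2L6. The RefSeq bounds may differ from those used in counting, and MT-RNR2 itself is listed in none of the matrices.

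On the human reference, the 5 genes together were at 0.769 CPM in D0 (95% exact Poisson interval 0.557 to 1.04), 306 in HIP_2MPT (296 to 317), 126 for PFC_2MPT (121 to 132), 315 for HIP_4MPT (308 to 323) and 681 for PFC_4MPT (669 to 693). These and all later intervals cover counting error only. PFC_4MPT was highest and D0 lowest, and the intervals of the neighbours HIP_2MPT and HIP_4MPT overlapped. The level in PFC was 0.412 times that in HIP at 2MPT and 2.16 times that in HIP at 4MPT. From 2MPT to 4MPT the ratio was 1.03 in HIP, where the intervals overlapped, and 5.39 in PFC. The direction between sites thus turned from 2MPT to 4MPT, while both stage ratios were above 1.

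MTRNR2L6 gave the most UMIs in every graft. It had 0 UMIs in D0, where 3 UMIs would be 0.0537 CPM, and stood at 145 CPM in HIP_2MPT (1620 UMIs), 66.1 for PFC_2MPT (1000 UMIs), 171 for HIP_4MPT (3673 UMIs) and 381 for PFC_4MPT (6422 UMIs). MTRNR2L10 likewise had 0 UMIs in D0, and 127 CPM in HIP_2MPT, 48.0 for PFC_2MPT, 114 for HIP_4MPT and 245 for PFC_4MPT. Neither gene was seen before grafting, and both were lowest in PFC_2MPT and highest in PFC_4MPT among the grafts, while HIP_2MPT and HIP_4MPT changed places between the genes.

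MTRNR2L12 was the one copy of the 5 above 3 UMIs in D0, where it had 39 UMIs or 0.698 CPM. It was at 27.6 CPM in HIP_2MPT, 9.91 for PFC_2MPT, 25.0 for HIP_4MPT and 47.4 for PFC_4MPT. MTRNR2L8 had 3 UMIs in D0 and 3.66, 1.52, 2.28 and 4.27 CPM in HIP_2MPT, PFC_2MPT, HIP_4MPT and PFC_4MPT. MTRNR2L1 had 1 UMI in D0 and 3.04, 0.793, 2.52 and 3.38 CPM in the same grafts. Both of these copies therefore stayed below 5 CPM in every library.

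On the human reference the makeup of the group differed between D0 and the grafts. In D0, MTRNR2L12 supplied 39 of the 43 UMIs of the 5 genes (90.7%, exact binomial interval 77.9 to 97.4%). In the grafts MTRNR2L6 supplied 47.3% in HIP_2MPT, 52.3% for PFC_2MPT, 54.3% for HIP_4MPT and 55.9% for PFC_4MPT, and MTRNR2L10 supplied 41.5%, 38.0%, 36.3% and 36.0%. MTRNR2L12 supplied 6.96% to 9.01% there. On the dual reference MTRNR2L12 led in the grafts as in D0, with 128 of 186, 65 of 95, 126 of 193 and 154 of 250 UMIs of the 5 genes from HIP_2MPT to PFC_4MPT. Of the other 6 MTRNR2L genes listed, MTRNR2L4 had 28 UMIs in D0 and 0 to 4 in the grafts, MTRNR2L11 had 0 in D0 and up to 17 in PFC_4MPT, and MTRNR2L3, MTRNR2L5, MTRNR2L7 and MTRNR2L13 had 0 to 4 in any library.

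**Figure D1:**
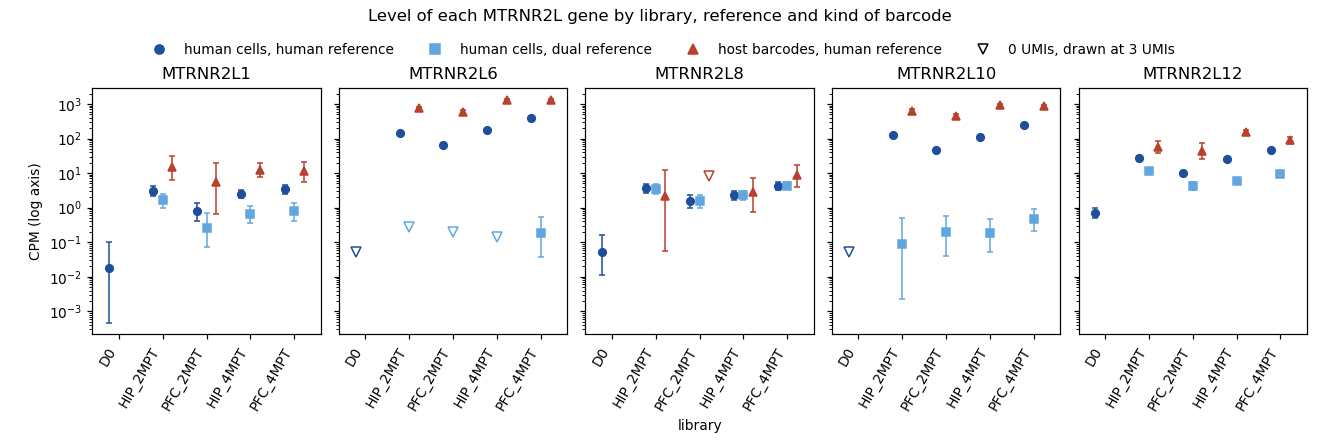
CPM (log axis) of each of the 5 genes by library, for human cells on the human reference (circles), the same cells on the dual reference (squares) and host barcodes on the human reference (triangles). Bars are 95% exact Poisson intervals, and open triangles mark 0 UMIs drawn at the level of 3 UMIs. MTRNR2L6 and MTRNR2L10 stand at 48.0 to 381 CPM in human cells of the grafts, below 0.5 CPM in the same cells on the dual reference, and above 400 CPM in host barcodes.

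The level of MTRNR2L6 and MTRNR2L10 depended on the reference used for counting. In the same human cells on the dual reference, MTRNR2L6 kept 0 of 1620 UMIs in HIP_2MPT, 0 of 1000 for PFC_2MPT, 0 of 3673 for HIP_4MPT and 3 of 6422 for PFC_4MPT. MTRNR2L10 kept 1 of 1424, 3 of 726, 4 of 2455 and 8 of 4133. On the dual reference both genes together were therefore at 0.0900 to 0.657 CPM in the grafts, on 1 to 11 UMIs. In PFC_4MPT the interval was 0.328 to 1.18 CPM, above that of D0 on the human reference, 0 to 0.066 CPM.

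The other copies kept more of their UMIs. MTRNR2L8 kept 95.1% in HIP_2MPT and 100% for PFC_2MPT, HIP_4MPT and PFC_4MPT, so its level in the grafts was nearly the same on both references. MTRNR2L12 kept 41.4% in HIP_2MPT, 43.3% for PFC_2MPT, 23.5% for HIP_4MPT and 19.3% for PFC_4MPT. MTRNR2L1 kept 52.9%, 33.3%, 25.9% and 22.8% in the same order, on 4 to 18 remaining UMIs. On the dual reference MTRNR2L12 stood at 11.5 CPM in HIP_2MPT, 4.30 for PFC_2MPT, 5.90 for HIP_4MPT and 9.19 for PFC_4MPT. HIP_2MPT and not PFC_4MPT was then the highest graft for this gene, although the Poisson intervals of these 2 libraries overlapped (9.61 to 13.7 and 7.80 to 10.8). These levels were 6.17 to 16.5 times that in D0, which was counted on the human reference alone, with other software and annotation. On the human reference, MT-ATP8 stood at 13.1 CPM in D0 and 495 to 1699 in the grafts. MT-ATP6 stood at 4421 CPM in D0 and 2845 to 7907 in the grafts. The part of the counting in the ratios to D0 was not tested.

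Few human genes lost UMIs in this way. Among 10979 genes with at least 500 UMIs in the human cells of the 4 grafts, the median share kept on the dual reference was 99.8%. MTRNR2L6 at 0.0236% and MTRNR2L10 at 0.183% were the lowest and the next lowest, and the only genes under 1%, while MTRNR2L12 at 26.4% was at rank 4 from the bottom. In all, 7 genes kept under 50% and 30 genes under 90%. The mitochondrially encoded messenger RNAs, among them MT-CO2, which encodes a subunit of cytochrome oxidase, kept nearly all of theirs (99.9% for MT-CO2 in HIP_2MPT).

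**Figure D2:**
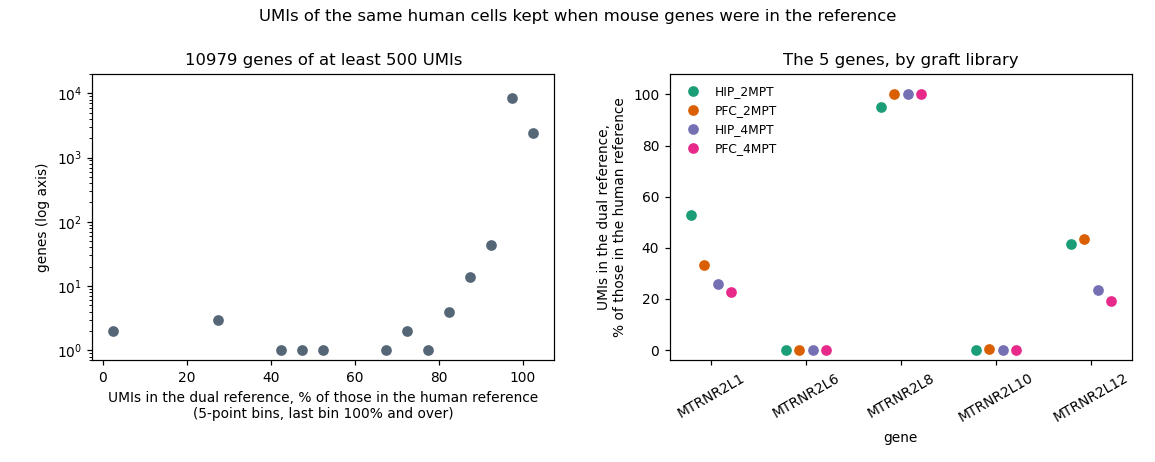
Share of UMIs that the same human cells kept when counted on the dual reference, as the number of genes (log axis) in 5-point bins for 10979 genes (left) and for each of the 5 genes in each graft (right, linear axis). MTRNR2L6 and MTRNR2L10 lie at 0 to 0.413%, MTRNR2L1 and MTRNR2L12 between 19.3% and 52.9%, and MTRNR2L8 at 95.1% or above.

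Host barcodes gave the level of these human genes in droplets dominated by mouse RNA. They were barcodes with under 20% human UMIs in the dual reference, and 737 of 916 in HIP_2MPT, 422 of 772 for PFC_2MPT, 1102 of 2071 for HIP_4MPT and 927 of 1202 for PFC_4MPT were also present in the human-reference matrix. There, MTRNR2L6 and MTRNR2L10 together stood at 1375, 1011, 2228 and 2150 CPM. This was 5.06 times the level in human cells of HIP_2MPT, 8.87 times in PFC_2MPT, 7.80 times in HIP_4MPT and 3.44 times in PFC_4MPT. The totals behind these CPM were not the same in kind, since the host barcodes of HIP_2MPT had 451611 UMIs on the human reference and 126437 human UMIs on the dual one. Median UMIs per host barcode were 554 on the human reference and 1552 over both species on the dual one in HIP_2MPT. For PFC_2MPT they were 791 and 3106.5. In human cells the medians were close, at 1253 and 1301 in HIP_2MPT and 2359 and 2383 for PFC_2MPT. Mouse UMIs were 90.1%, 97.8%, 97.8% and 91.3% of all UMIs in host barcodes on the dual reference from HIP_2MPT to PFC_4MPT. In human cells they were 4.21%, 1.07%, 2.82% and 6.54%. Per UMI of both species, the ratios to human cells would thus be smaller in all 4 grafts, and their size was not computed. Barcodes of mixed species, with 20 to 80% human UMIs, lay between the human cells and the host barcodes at 521, 417, 526 and 1284 CPM.

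The pair also led among the copies in host barcodes. MTRNR2L6 supplied 51.8% of the 5 genes' UMIs in host barcodes of HIP_2MPT, 54.2% for PFC_2MPT, 54.1% for HIP_4MPT and 57.4% for PFC_4MPT, and MTRNR2L10 supplied 43.1%, 41.1%, 38.6% and 37.8%. MTRNR2L12 supplied 3.96% to 6.61%, a smaller share than in the human cells of the same library in every graft. Its level was 57.6, 44.7, 159 and 89.6 CPM, 1.89 to 6.35 times its level in human cells on the same reference. These CPM use the human-reference total, which leaves out much of the mouse RNA of a host barcode. Whether MTRNR2L12 was higher or lower in host barcodes per UMI of both species was not tested. MTRNR2L8 had 1, 0, 4 and 8 UMIs in host barcodes, too few to place it above or below the human cells. On the dual reference, MTRNR2L6 and MTRNR2L10 together had 1 UMI over the host barcodes of all 4 grafts. D0, which held no mouse cells, had 0 UMIs of the pair on the human reference.

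The share of cells with at least 1 UMI of the 5 genes was compared after every cell had been thinned to 1000 UMIs, leaving out shallower cells. In human cells it was 0.109% in D0 (5 of 4603 cells), 26.0% in HIP_2MPT, 12.3% for PFC_2MPT, 28.6% for HIP_4MPT and 49.2% for PFC_4MPT. In host barcodes it was 56.0% in HIP_2MPT (28 of 50), 56.9% for PFC_2MPT (41 of 72), 81.0% for HIP_4MPT (526 of 649) and 78.7% for PFC_4MPT (218 of 277). Before thinning, the median UMIs of these human cells and host barcodes were 1330 and 1185 in HIP_2MPT, 2405 and 1164 for PFC_2MPT, 2793 and 1383 for HIP_4MPT, and 1945 and 1208 for PFC_4MPT. The share in human cells was below that in host barcodes of the same library in all 4 grafts. Thinning drew human-reference UMIs, which in host barcodes are a smaller part of the captured RNA than in human cells. The depths were thus not matched, and the order of the shares cannot set a level of background. On the human reference the share in human cells was not read as expression. Thinning left out 1635 human cells and 687 host barcodes in HIP_2MPT, 233 and 350 for PFC_2MPT, 171 and 453 for HIP_4MPT, and 982 and 650 for PFC_4MPT. Without thinning, the shares in human cells were 0.860%, 33.4%, 24.5%, 58.3% and 72.7% from D0 to PFC_4MPT. On the dual reference, thinned human cells had a UMI of any of the 5 in 1.63%, 0.593%, 0.915% and 1.36% of cells from HIP_2MPT to PFC_4MPT.

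Mouse mitochondrial messenger RNA was measured in the same human cells. Between libraries it did not follow the pair throughout, since it was lower in HIP_4MPT than in HIP_2MPT while the pair was at 286 CPM in HIP_4MPT and 272 in HIP_2MPT. The dual reference lists 13 mouse mt- genes, and their UMIs in human cells came to 15756 CPM of the dual reference in HIP_2MPT, 5375 for PFC_2MPT, 9933 for HIP_4MPT and 44721 for PFC_4MPT. For each 1000 of these mouse UMIs, human cells held 16.7 UMIs of MTRNR2L6 and MTRNR2L10 in HIP_2MPT, 21.0 for PFC_2MPT, 28.1 for HIP_4MPT and 13.2 for PFC_4MPT. Host barcodes held 15.5, 14.7, 9.74 and 10.0 for each 1000. The ratio thus spanned 9.74 to 28.1 over the 8 populations. Mixed barcodes held 15.6, 20.3, 15.9 and 11.5. No mouse genome was used here, so whether reads of the pair match mouse mitochondrial ribosomal RNA was not tested.

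Human cells with more mouse mt- UMIs also held more UMIs of the pair. In PFC_2MPT, the 26 human cells with no mouse mt- UMI had 0 UMIs of the pair, and cells with 1 to 4, 5 to 9, 10 to 19, 20 to 49 and at least 50 had 10.0, 16.3, 25.3, 53.0 and 268 per 100 cells. Median UMIs per cell in these bins ran from 1424 to 2632, a narrower range. In HIP_4MPT the pair went from 10.8 per 100 cells with 1 to 4 mouse mt- UMIs to 150 with at least 50, and in HIP_2MPT from 21.3 with 5 to 9 to 106 with at least 50. In PFC_4MPT, cells with 10 to 19 held 13.5 and cells with at least 50 held 129. The values rose from each bin to the next in all 4 grafts, over bins of at least 20 cells. Depth rose as well in HIP_4MPT, with medians of 1403 UMIs at 1 to 4 and 2935 at 50 or more. Without MT- and MTRNR2L UMIs in the total, the pair was at 73.9 and 468 CPM in these bins. On the human reference the trend was not particular to the pair. MTRNR2L1, MTRNR2L8 and MTRNR2L12 together went from 1.85 to 12.6 per 100 cells of PFC_2MPT between the same bins. These rates rested on 12 and 11 UMIs. Whether these copies rise over the bins on the dual reference was not tested. Between the end quartile groups of mouse mt- share, described below, their dual-reference ratio was 0.806 in PFC_2MPT. It was 1.17 in HIP_2MPT, 1.58 for HIP_4MPT and 1.87 for PFC_4MPT.

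**Figure D3:**
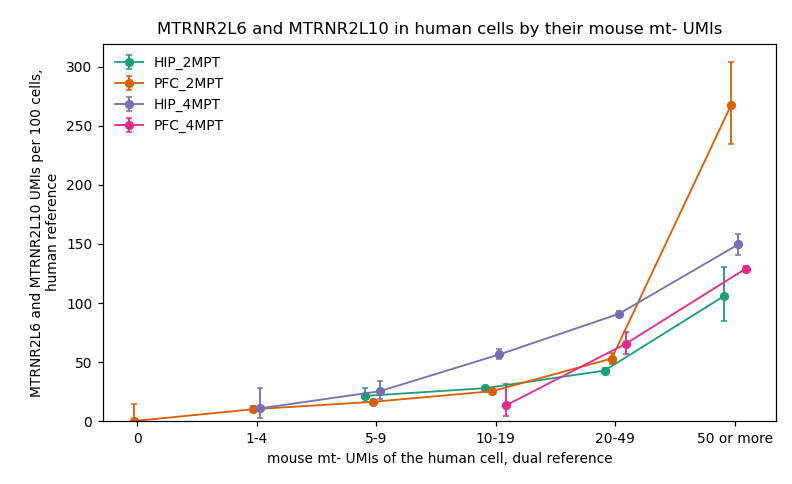
UMIs of MTRNR2L6 and MTRNR2L10 per 100 human cells on the human reference (linear axis, 95% exact Poisson intervals) against the mouse mt- UMIs of the same cells on the dual reference, for the 4 grafts. Bins under 20 cells are left out. Each line climbs from left to right, in PFC_2MPT from 0 to 268.

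Over the cells' own MT- share the pair varied less than over the mouse mt- share. Human cells of each library were put into quartile groups by the share of their UMIs from the 13 human MT- genes, and CPM were recomputed without MT- and MTRNR2L UMIs in the total. From the lowest to the highest quartile group, the pair went from 283 to 331 CPM in HIP_2MPT, 103 to 144 for PFC_2MPT, 269 to 373 for HIP_4MPT and 484 to 1062 for PFC_4MPT. These are ratios of 1.17, 1.40, 1.39 and 2.19. In quartile groups by the share of mouse mt- UMIs, the ratios were 2.90, 5.72, 3.90 and 3.50, higher in every graft. The median mouse mt- share also differed over the human quartile groups, for instance from 3.42% in the lowest to 7.15% in the highest in PFC_4MPT, and the part of mouse RNA in this relation was not tested.

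To narrow the spread of the human MT- share, each quartile group was split at its median mouse mt- share. In the quartile group with the lowest MT- share, the cells with less and with more mouse mt- RNA held 208 and 394 CPM of the pair in HIP_2MPT, 53.0 and 178 for PFC_2MPT, 168 and 435 for HIP_4MPT, and 350 and 707 for PFC_4MPT. The cells with more mouse RNA were higher in every quartile group of all 4 grafts, without overlap of the Poisson intervals. The median MT- shares of both sets in the lowest quartile group were close, at 2.48% and 2.32% in HIP_2MPT. In PFC_4MPT the cells with less mouse RNA still went from 350 CPM in the lowest MT- quartile group to 798 in the highest, while their median mouse mt- share went from 2.39% to 5.19%. Both the pair's level and the mouse share have the cell's UMIs in the denominator, and the part of this shared total in the relation was not tested.

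The remaining copies, MTRNR2L1, MTRNR2L8 and MTRNR2L12, were summed and followed on the dual reference. Over quartile groups by human MT- share they went from 12.1 to 20.8 CPM in HIP_2MPT, 2.58 to 7.88 for PFC_2MPT, 5.54 to 12.9 for HIP_4MPT and 8.84 to 21.5 for PFC_4MPT, ratios of 1.72, 3.05, 2.33 and 2.43. The intervals of the end quartile groups overlapped in HIP_2MPT and not in the other grafts. Over quartile groups by mouse mt- share the ratios were 1.17, 0.806, 1.58 and 1.87, smaller in all 4 grafts, and the intervals were apart in PFC_4MPT and overlapped in the others. On the human reference this order turned, and the 3 copies had ratios of 2.14, 2.86, 2.87 and 3.33 by mouse mt- share against 2.03, 2.46, 1.68 and 2.33 by human MT- share. Whether these relations differ was not tested. These counts were small, with 9 to 54 UMIs in the end quartile groups of the human share. In D0, where no mouse RNA was present, the 3 copies stood at 0.897 CPM in the lowest and 0.982 in the highest quartile group on 9 and 14 UMIs, intervals that overlapped widely.

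**Figure D4:**
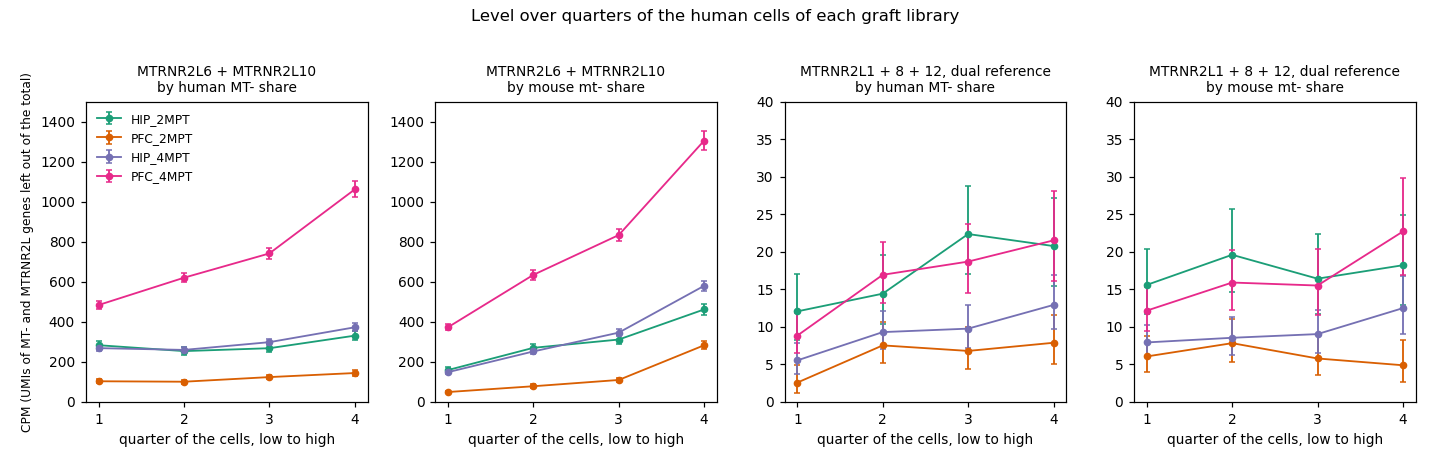
CPM (linear axes, 95% exact Poisson intervals) over quartile groups of the human cells of each graft, for MTRNR2L6 and MTRNR2L10 on the human reference by human MT- share and by mouse mt- share (left panels), and for MTRNR2L1, MTRNR2L8 and MTRNR2L12 on the dual reference by the same shares (right panels). The pair spans 49.5 to 283 in PFC_2MPT by mouse share but 103 to 144 by human share.

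Cell by cell, these relations were faint in such sparse counts and are given as a description. Spearman's rho of the pair's share with the human MT- share was 0.022 over 8277 cells of HIP_2MPT, 0.030 over 5952 of PFC_2MPT, 0.056 over 6913 of HIP_4MPT and 0.217 over 8363 of PFC_4MPT. With the mouse mt- share it was 0.157, 0.225, 0.316 and 0.363. With the cell's UMIs it was -0.063, -0.00052, -0.168 and -0.282. All 3 measures share the cell's depth.

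Cell classes were set from clusters made without MTRNR2L and MT- genes, named by marker lists. Of 19 clusters, 16 were named for a class, and 3 stayed unnamed. The largest unnamed cluster held 2050 cells, 1119 of HIP_4MPT and 792 of PFC_4MPT. It carried markers of both astrocytes and the oligodendrocyte lineage, among them SPARCL1, OLIG1 and OLIG2, and is in no class level here. On the human reference the 5 genes in neuron-like cells stood at 0.629 CPM in D0, 313 in HIP_2MPT, 137 for PFC_2MPT, 372 for HIP_4MPT and 746 for PFC_4MPT. Progenitor-like cells, the dividing precursors, were at 0.185 in D0 on 2 UMIs, then 215, 74.7, 173 and 399. Astrocyte-like cells, the support glia, were at 319, 96.5, 221 and 424 in the grafts, and choroid-plexus-like cells, which line the ventricles and make cerebrospinal fluid, at 261, 85.0, 239 and 550. The choroid-plexus-like class in the grafts held only with the clustering used here, since resolution 1.6 left 1 to 3 of its cells per graft, clustering with the MT- and MTRNR2L genes left in 2 to 18, and classes set cell by cell 0. Oligodendrocyte-lineage-like cells, the myelin-forming lineage, reached 50 cells at 4MPT and not at 2MPT in this clustering, where 69 cells of HIP_4MPT were at 360 CPM and 107 of PFC_4MPT at 548 CPM. At resolution 1.6 the class held 76 cells of PFC_2MPT and 1012 of HIP_4MPT. Among the named classes, neuron-like cells were highest for PFC_2MPT, HIP_4MPT and PFC_4MPT. In HIP_4MPT the margin was small, at 372 CPM beside 360 in the 69 oligodendrocyte-lineage-like cells. Astrocyte-like cells were highest in HIP_2MPT, by a margin within the intervals.

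Neuron-like cells stood above progenitor-like cells on the CPM scale, and their cells were shallower. For the pair alone, the neuron-like level was 1.56 times the progenitor-like level in HIP_2MPT, 1.91 times for PFC_2MPT, 2.16 times for HIP_4MPT and 1.88 times for PFC_4MPT. Median UMIs per cell were 1243 in neuron-like and 1850 in progenitor-like cells of HIP_2MPT, 2270 and 4433 in PFC_2MPT, 2515 and 5303 in HIP_4MPT, and 1762 and 3522 in PFC_4MPT. Per 100 cells instead, neuron-like and progenitor-like cells held 36.9 and 35.0 UMIs of the pair in HIP_2MPT, 29.2 and 29.3 for PFC_2MPT, 88.7 and 87.0 for HIP_4MPT, and 127 and 134 for PFC_4MPT. Ratios per 100 cells were thus 0.945 to 1.05, and the Poisson intervals overlapped in every graft. Per 1000 mouse mt- UMIs, the named classes lay between 15.0 and 18.3 in HIP_2MPT, 17.4 and 21.3 for PFC_2MPT, 28.0 and 34.8 for HIP_4MPT, and 12.5 and 14.6 for PFC_4MPT.

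**Figure D5:**
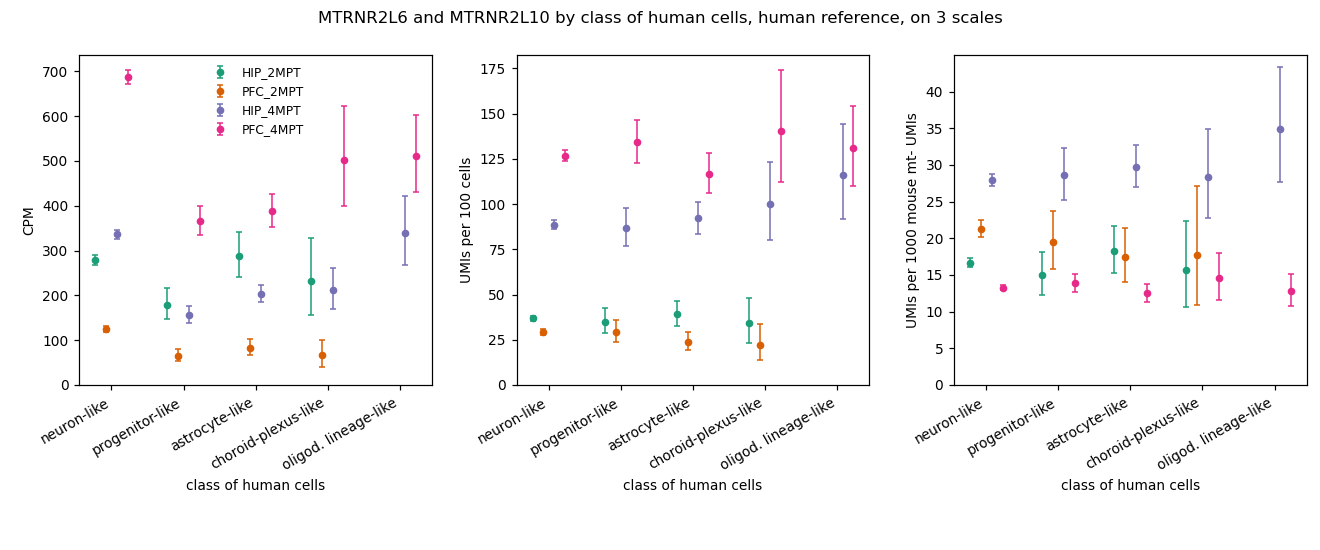
MTRNR2L6 and MTRNR2L10 in classes of human cells of each graft on the human reference, as CPM (left), UMIs per 100 cells (middle) and UMIs per 1000 mouse mt- UMIs of the dual reference (right), with 95% exact Poisson intervals of the pair's UMIs and linear axes from 0. On the CPM scale neuron-like cells stand at 1.56 to 2.16 times the level of progenitor-like cells, and on the middle scale the ratio is 0.945 to 1.05.

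The level of the pair by cluster was pooled over libraries that differ in it and fill the clusters unequally. The pair was highest at 1050 CPM in an unnamed cluster of 739 cells, 702 of them from PFC_4MPT, whose median depth was 0.476 of that of their libraries. That cluster had 10.7% MT- UMIs and 87112 CPM of mouse mt- UMIs on the dual reference. The pair was lowest at 0.0815 CPM, a single UMI, in a neuron-like cluster with 981 of 986 cells from D0. A neuron-like cluster led by NRXN3, GAD2 and DLX genes, which mark inhibitory neurons, was at 450 CPM. It held 1104 of 1476 cells from PFC_4MPT, but also 90 from D0 and 244 from HIP_4MPT. Its level within PFC_4MPT alone was not computed. Choroid-plexus-like cells were mostly from D0 (971 of 1305), and their level in the grafts rests on 59 to 95 cells per library.

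The genes most like the 5 copies were sought over 14 sums of progenitor-like, neuron-like, astrocyte-like and oligodendrocyte-lineage-like cells of the grafts, by Pearson's r of log2(CPM + 1) across 10528 genes, with MT- genes kept out of the ranking. Outside the MT- genes, STEAP1B led with 0.867, followed by RPL36AL, a ribosomal protein gene, with 0.817, CD27-AS1 with 0.798, EXD3 with 0.766 and CDH13, a cadherin, with 0.766. Human MT- genes ranged from 0.141 for MT-ND6 to 0.919 for MT-ND2, which was above STEAP1B, and mouse mt- UMIs of the same cells reached 0.928. These points share libraries and depth, and the sums of PFC_4MPT held the highest levels of the 5 genes. Over 20516 thinned neuron-like cells the leading genes were CPSF6, PNRC1, RTN1, PITHD1 and NPDC1 with mean r of 0.0221 to 0.0262, and none of these 5 was among the 5 named over sums.

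Genes that humanin is known to bind or act through were followed over stage and site, with human cells summed per library. Across all genes, the quasi-likelihood test of edgeR, adjusted by Benjamini-Hochberg, called 457 of 19074 genes (2.40%) between 4MPT and 2MPT, with HIP and PFC as the replicates and D0 in the same fit, and 15 of 18127 (0.0827%) between PFC and HIP with stage as a covariate. The first were 352 higher at 4MPT (1.85%) and 105 lower (0.550%), the second 12 higher in PFC (0.0662%) and 3 lower (0.0165%). At an unadjusted p under 0.05 stood 2614 of the 19074 genes between stages and 443 of the 18127 between sites, beside which the unadjusted counts of the lists are to be read. Of the humanin partners, 10 of 12 listed genes could be tested between stages, and 0 were called, with 1 at an unadjusted p under 0.05. DESeq2 called 1 of 9 partners, IL6ST, beside 1136 of 17377 genes in all. IL6ST, the gp130 subunit of the humanin receptor complex, was at 5.36 CPM in HIP_2MPT, 9.45 for PFC_2MPT, 16.7 for HIP_4MPT and 14.8 for PFC_4MPT. Both 4MPT libraries were above both 2MPT libraries, with a log2 difference of 1.13 (SE 0.32, edgeR adjusted p = 0.116). It was also called with no filter on low counts, where 1347 of 27512 genes were called.

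Like IL6ST, the other subunits of that complex did not pass the edgeR test. CNTFR, the ciliary neurotrophic factor receptor, was at 51.1, 64.1, 62.5 and 77.6 CPM from HIP_2MPT through PFC_2MPT and HIP_4MPT to PFC_4MPT, and IL27RA at 3.66, 5.02, 4.47 and 5.22. BAX, the apoptosis effector that humanin binds, was at 111, 81.9, 75.7 and 70.0 CPM, with a log2 difference of -0.34 between stages (SE 0.23, edgeR adjusted p = 0.590). The formyl peptide receptor genes FPR2 and FPR3 had 0 or 1 UMI in each library. STAT3, which carries the receptor signal, was at 77.8, 73.3, 69.9 and 63.1 CPM. Between PFC and HIP, 9 partners were tested and 0 were called by edgeR or DESeq2, with 0 at an unadjusted p under 0.05.

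Genes of mitochondrial RNA were handled the same way. The list held 9 nuclear genes for synthesis and turnover of mitochondrial RNA. Among them are TFAM, which packages mitochondrial DNA and helps to start its transcription, and LRPPRC, which stabilises mitochondrial messengers. Of the 9, edgeR called 0 between stages and 0 between sites, with 0 at an unadjusted p under 0.05 in either. DESeq2 called 0 of them. Of the 13 human MT- messengers, edgeR called 0 between stages and 4 were at an unadjusted p under 0.05, with a median log2 difference of 0.79 beside -0.01 over all genes tested. DESeq2 also called 0. MT-ND2, a complex I subunit, had the largest difference, 1.42 (SE 0.37, edgeR adjusted p = 0.0788), from 1023 CPM in HIP_2MPT and 736 for PFC_2MPT to 1419 for HIP_4MPT and 3048 for PFC_4MPT. With the graft site as a replicate block 1 of the 13 was called, beside 734 of 19074 genes. With no filter on low counts 9 were called, beside 1347 of 27512 genes. The sites did not move alike. In HIP, MT-CO2 went from 6972 CPM at 2MPT to 5031 at 4MPT and MT-CO3 from 5635 to 3722, while MT-CYB went from 3014.5 to 3154. In PFC, MT-CO2 went from 4340 to 13561 CPM. Of the nuclear transcripts MALAT1 and NEAT1, edgeR called 0 in either comparison, with 1 at an unadjusted p under 0.05 in each, and DESeq2 called 0. NEAT1 was called between stages with no filter on low counts and without HIP_2MPT. Between PFC and HIP, 0 of the 13 MT- messengers were called by edgeR or DESeq2, with 0 at an unadjusted p under 0.05.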

How the data were processed

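The deposited files are UMI counts per gene and barcode that the authors made with Cell Ranger, on the human reference for all 5 libraries and on a dual human and mouse reference for the grafts. The labels and methods name Cell Ranger 3.1 and GRCh38 (hg38), whereas the headers of the count matrices give 3.1.0 for D0 and 5.0.0 for the grafts. The mouse build is named differently in the methods and in the gene prefixes, and no mouse coordinates were used. The 5 genes, the gene lists and the marker lists were chosen with earlier results of these data known.

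Human cells passed limits of 500 for both UMIs and genes, a log10 gene number above 0.8 of the log10 UMI number, an MT- share under 0.15 and, in grafts, a human share above 0.8 in the dual reference. Doublets were not called, and barcodes of mixed species were set apart. Cells were clustered with Seurat 5.3.0 after sctransform 0.4.2 and integration of the libraries (2500 variable genes, 40 components, resolution 0.8) without MTRNR2L and MT- genes, and intermediate progenitor clusters counted among neurons. CPM were sums of UMIs over cells, with 95% exact Poisson intervals, and shares had exact binomial intervals. Where 0 UMIs were seen, 3 UMIs were taken as the limit. UMI sums per library were tested with edgeR 4.0.16, and with DESeq2 1.42.0 as an alternative, at an adjusted p of 0.05. On simulated counts edgeR found 99 of 100 genes changed 4-fold and 14 of 100 changed 2-fold between stages, among 18247 genes. HIP and PFC stand as replicates of a stage, so p-values measure the spread between these libraries. Genes named in the text were the members, the other MTRNR2L genes, the fixed lists and the 5 genes most like the members by each of 2 measures. Host barcodes had a human share under 0.2. Sequences came from hg38 at RefSeq GRCh38.p14 positions, since the GENCODE annotation used here does not list these IDs. The mouse quartile groups and bins, host barcodes, ratios to mouse mt- UMIs and the comparison of references over all genes were chosen after the data were seen.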

Additional observations from a re-analysis of the deposited data

Results flagged for a closer look

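Signal of the 5 human genes appeared in barcodes that the comparisons between libraries do not use, those of host cells on the human reference. They stood there at 1450.4 CPM in HIP_2MPT, 1061 for PFC_2MPT, 2402 for HIP_4MPT and 2260 for PFC_4MPT, against 0.769 CPM in D0, which held no mouse cells. This was 4.74, 8.41, 7.62 and 3.32 times the level in human cells of the same library. These ratios use human-reference totals, which leave out much of the mouse RNA of a host barcode. With mouse genes in the reference, the same host barcodes held 2, 2, 7 and 22 UMIs of the 5 genes. Each condition had 1 library, so no comparison with replicates was made.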

How the results depend on the processing

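Of 141 alternative values, 79 stayed close to the reported one and 62 moved. A level, share or ratio counted as moved outside the 95% counting interval of the reported value, a number of called genes beyond 1.5 times, and the correlation, which has no such interval, as moved. The reference moved the level of the 5 genes most, to 16.7 CPM in HIP_2MPT, 6.29 for PFC_2MPT, 9.04 for HIP_4MPT and 14.9 for PFC_4MPT on the dual reference. Cells of over 1000 UMIs gave 286 in HIP_2MPT and 641 for PFC_4MPT, and a total without MT- and MTRNR2L UMIs gave 319 in HIP_2MPT, 325 for HIP_4MPT and 734 for PFC_4MPT. In PFC_4MPT a human share over 0.9 gave 588, an MT- share under 0.1 gave 629 and no limit on it gave 708. Classes set cell by cell put progenitor-like cells at 0.722 in D0, 277 in HIP_2MPT, 93.2 for PFC_2MPT, 235 for HIP_4MPT and 500.3 for PFC_4MPT, and astrocyte-like cells at 388 in HIP_2MPT, with 7.55% of cells within 1 UMI of another class. Resolution 1.6, and clustering with the MT- and MTRNR2L genes left in, moved none of their 15 values each, which cover neuron-like, progenitor-like and astrocyte-like cells. Shares of cells with a UMI became 15.4%, 6.40%, 16.2% and 31.1% from HIP_2MPT to PFC_4MPT at 500 UMIs per cell, and 0.860%, 33.4%, 24.5%, 58.3% and 72.7% from D0 on without thinning. The ratio of the 5 genes between the end quartile groups of the MT- share was 1.235, 1.47, 1.41 and 2.20 from HIP_2MPT to PFC_4MPT. On the dual reference it became 1.67, 3.18, 2.30 and 2.47 in the same order. Fixed bins gave 3.50 in D0, on 14 UMIs in the lowest and 4 in the highest bin under 15%, with overlapping intervals. The same bins gave 2.21 in HIP_2MPT, 4.00 for HIP_4MPT and 3.06 for PFC_4MPT. For PFC_2MPT the ratio was 0.891, where the last bin held 22 cells and the direction turned. Neuron-like cells alone gave 1.18 in HIP_4MPT and 1.605 in PFC_4MPT, and a total of all UMIs gave 2.06 in PFC_4MPT. The highest correlation with a gene other than the MT- genes went from 0.867 over sums to 0.0262 over cells. Calls between stages numbered 1136 with DESeq2 and 1347 with no filter on low counts. They ranged from 32 to 1508 when a graft library was left out, with 32 without PFC_4MPT, 207 without HIP_4MPT and 1508 without PFC_2MPT, the lone library of a stage being assumed to vary like the others. With the graft site as a replicate block, pairing the stages within HIP and PFC, 734 genes were called. Between sites, DESeq2 called 28, no filter 36 and a fit without stage 0, and leaving out a library there could not be fitted, since no residual degree of freedom remained. The cause of these moves was not tested. With 1 library per condition, intervals cover counting error only.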
